A study of Rattus norvegicus with 12 samples.

Results

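The genes described here make, break and read out cyclic AMP (cAMP) in the dorsal root ganglion (DRG). They are 9 adenylyl cyclases (AC, symbols beginning with Adcy), 23 genes with a phosphodiesterase (PDE) name and 6 subunits of protein kinase A (PKA), 38 genes of the 16481 symbols in the table of the nerve injury comparison and of the 16464 in the table of the Neat1 shRNA comparison. They were chosen by a rule on symbols that uses no expression value, although earlier results of these data were known. Where the authors' assembly held several rows for a symbol, the row with the highest mean of both groups was read, which concerned 3 members in the injury table and 4 in the shRNA table.

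Adenylyl cyclases convert ATP into cAMP when a stimulatory G protein is activated, and their isoforms differ in how they respond to calcium and to G protein subunits. Phosphodiesterases hydrolyse cAMP, cGMP or both and thereby end the signal. cAMP releases the catalytic subunits of PKA from the regulatory subunits, and in sensory neurons this pathway is known for sensitizing nociceptors and for the growth of injured axons.

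Total RNA was taken from the L5 DRG of Sprague Dawley rats 14 days after spinal nerve ligation (SNL), a model of neuropathic pain in which the L5 spinal nerve is tied on 1 side. Rats were 5 to 6 weeks old by the methods and male by the labels, although the methods name both sexes. The 4 groups of 3 libraries were the ligated side (SNL), the intact contralateral side of ligated rats (Control), ligated rats injected in the L5 DRG with an AAV vector for Neat1 shRNA, and ligated rats injected with a control AAV vector. The vectors, of serotype 6, were given 7 days before SNL, so that every group, Control included, comes from rats with a ligated nerve, and the 2 vector groups share both the injection and the ligation. Neat1 is a long non-coding RNA whose row bears no symbol and was found by its rn5 location, and it had 294 FPKM in SNL and 141 FPKM in Control. In the group labelled Neat1 shRNA it had 374 FPKM, against 355 FPKM in the control AAV group. By these group values the transcript aimed at was not lower there, and the group is called by its label throughout. The paper reports from quantitative PCR that a Neat1 shRNA vector did lower Neat1 significantly after SNL.

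FPKM counts fragments per kilobase of transcript, scaled to the size of the library, and as a level per length it can be compared between genes. The deposited tables give the authors' value for each group as a whole. The spread between rats is therefore unknown, no difference has a replicate check, no test was run, and the number of reads behind a value is unknown. A member is called higher or lower where its FPKM differed by more than 1.5-fold and the mean of both groups was at least 1 FPKM. In each comparison 34 of the 38 members reached that mean. Adcy10, Pde6a and Pde6c did so in neither, Pde6h not in the injury comparison and Pde1b not in the shRNA comparison. The 2 tables were assembled and normalized apart, so ratios are taken within a table, and levels in all 4 groups stand side by side without being compared across the tables. These are whole ganglia, in which fewer cells of a type and less RNA per cell cannot be told apart.

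The type I regulatory subunits of PKA were the most abundant members in all 4 groups. Prkar1b, the neuronal RI beta subunit, had 197 FPKM in SNL and 258 FPKM in Control, and 153 FPKM in the group labelled Neat1 shRNA and 145 FPKM in the control AAV group. Prkar1a, the widely expressed RI alpha subunit, had 223 FPKM in SNL and 226 FPKM in Control, and 196 FPKM with the label Neat1 shRNA and 185 FPKM with control AAV. By FPKM in SNL these genes held places 338 and 285 among all symbols of their table. Of the PDE names, the highest was Pde6d, a chaperone for prenylated proteins that is named for its copurification with the photoreceptor enzyme, at 36.6 FPKM in SNL and 48.5 FPKM in Control. The highest catalytic PDE was Pde2a, an enzyme that cGMP stimulates, at 32.7 FPKM in SNL and 22.4 FPKM in Control. None of the 9 AC members exceeded 20 FPKM in any group. Adcy6 led them in SNL, with 14.8 FPKM, and in both vector groups, whereas Adcy3 led them in Control with 11.4 FPKM.

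**Figure D1:**
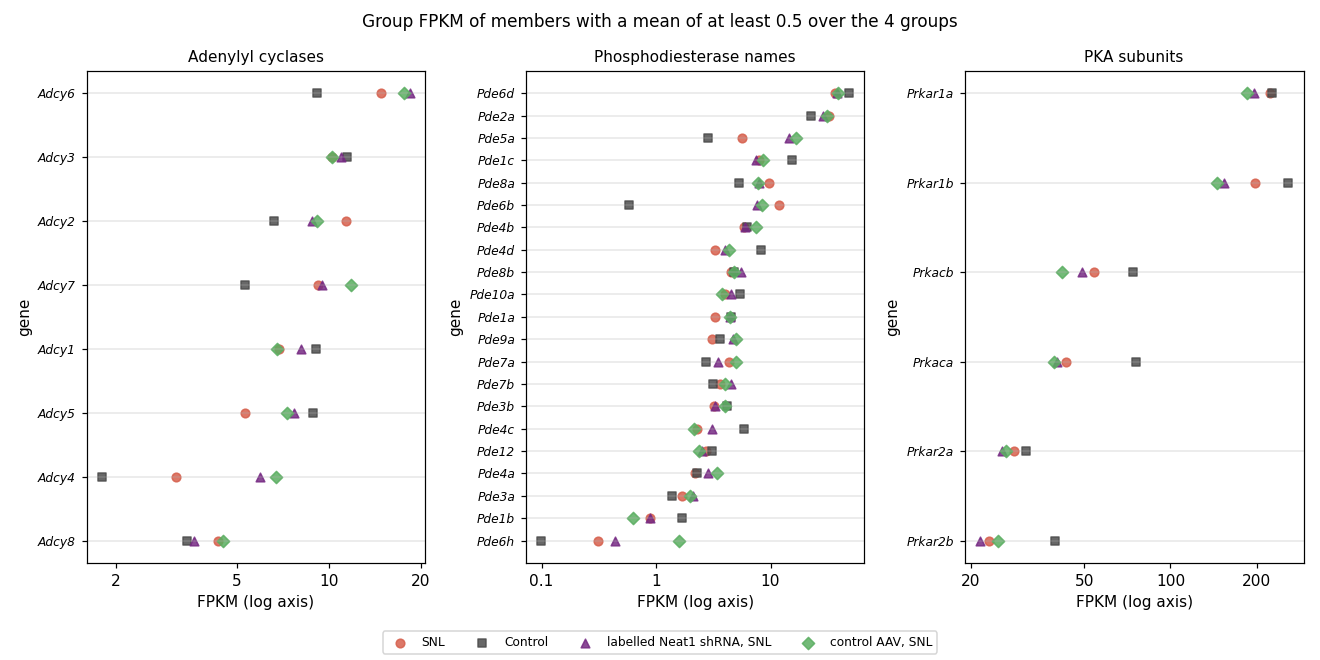
FPKM on a log axis for the members with a mean of at least 0.5 FPKM over the 4 groups, in a panel for each family, with 1 marker per group (the authors' group value, so no error bars). Within the injury table SNL and Control stand farthest apart for Pde6b, at 11.8 FPKM in SNL and 0.581 FPKM in Control, and the PKA subunits stand above 20 FPKM in every group.

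After SNL, 8 of the 34 measured members were higher than in Control and 7 were lower, 44.1% in either direction. In the same table, of all 10827 measured symbols, 34.3% were past the same fold, with 18.3% higher and 16.0% lower. At a fold of 2 the order of these shares turned round, with 1 member higher and 2 lower, beside 9.7% and 8.15% of all symbols, so no excess of members is read from them. The median log2 ratio of the members was -0.15, beside 0.000364 over all measured symbols. The direction of the calls at 1.5-fold differed by family, in families of few genes. At a fold of 2 no AC and no PKA subunit passed. In the AC family 4 of 8 measured genes were higher and 1 was lower, among the PDE names 4 of 20 were higher and 4 lower, and among the PKA subunits none of 6 was higher and 2 were lower.

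**Figure D2:**
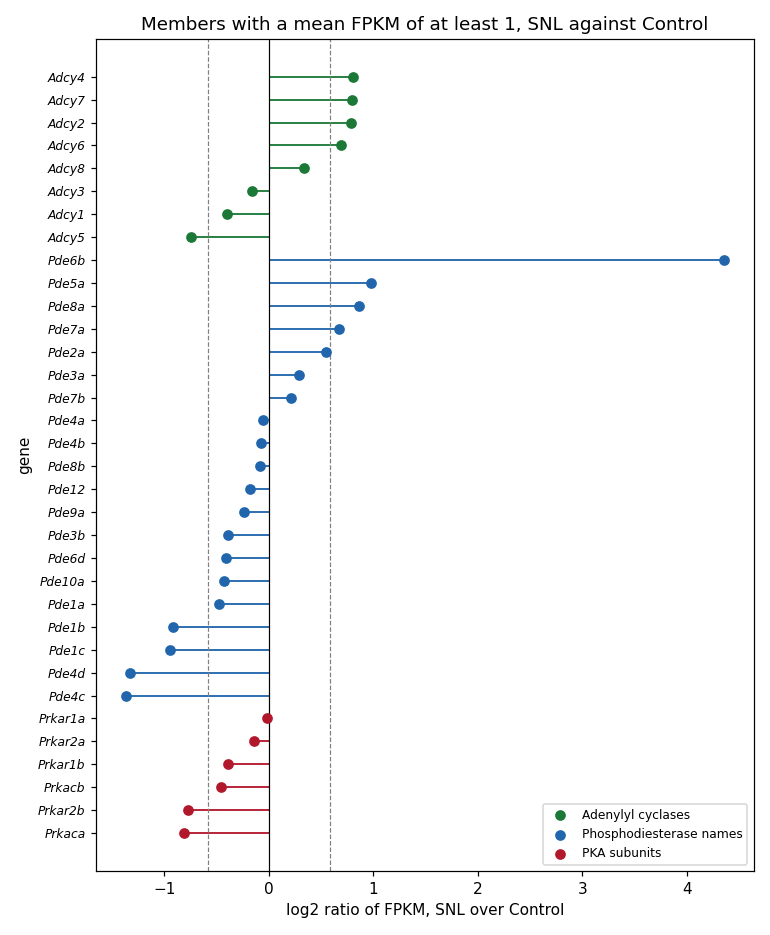
Log2 ratio of FPKM, SNL over Control, for the 34 members with a mean of at least 1 FPKM, ordered within each family, with 1 point per gene (no error can be given) and dashed lines at 1.5-fold. Pde6b stands alone at 4.35, all 6 PKA subunits lie below 0, and the lowest values are -1.36 for Pde4c and -1.33 for Pde4d.

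Among the ACs, the 3 isoforms that G protein beta-gamma subunits stimulate were all higher after SNL, by similar amounts. Adcy2, a neuronal isoform, had 11.4 FPKM in SNL and 6.60 FPKM in Control, a log2 ratio of 0.79. Adcy7, an isoform known for its expression in blood cells, had 9.21 FPKM in SNL and 5.30 FPKM in Control, a log2 ratio of 0.80. Adcy4 had 3.15 FPKM in SNL and 1.81 FPKM in Control, a log2 ratio of 0.80. Summed, these isoforms held 36.2% of the AC FPKM in SNL and 24.5% in Control. The isoforms that calcium and calmodulin stimulate did not pass the fold. Adcy3, best known from olfactory neurons, had 10.2 FPKM in SNL and 11.4 FPKM in Control, and the log2 ratios of Adcy1, Adcy3 and Adcy8 ran between -0.40 and 0.34. Their share of the AC FPKM was 32.6% in SNL and 42.7% in Control. The closely related isoforms that calcium inhibits differed in direction. Adcy6 had 14.8 FPKM in SNL and 9.16 FPKM in Control, a log2 ratio of 0.69, while Adcy5 had 5.31 FPKM in SNL and 8.88 FPKM in Control, a log2 ratio of -0.74. The remaining member, the soluble cyclase Adcy10, which bicarbonate activates, stayed under 0.7 FPKM in all 4 groups. Summed over all 9 genes, AC FPKM was 65.6 in SNL and 56.0 in Control. A further AC gene, Adcy9, was not among the symbols, so the AC sums, shares and order leave it out.

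**Figure D3:**
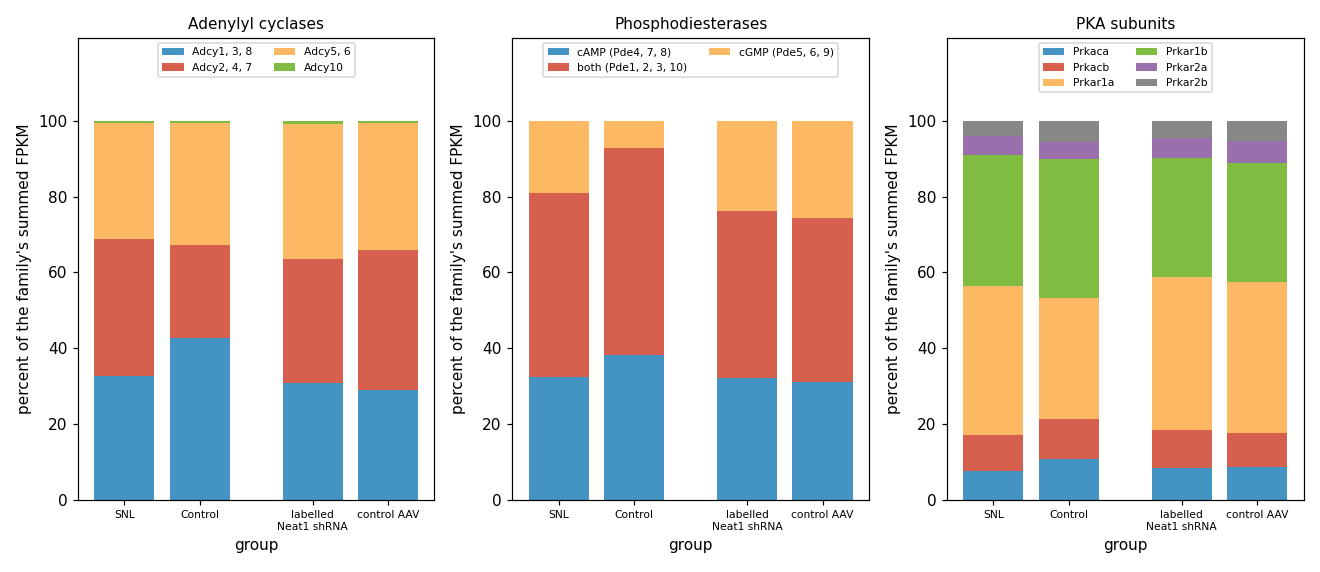
Stacked bars of the percent of each family's summed FPKM held by AC classes, by PDE classes and by single PKA subunits in the 4 groups (authors' group values, no error bars). The share of Adcy2, Adcy4 and Adcy7 was 36.2% in SNL and 24.5% in Control, and that of the cGMP-directed PDE genes was 19.0% in SNL and 7.19% in Control.

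Of the 8 PDEs specific for cAMP, 2 were lower and 2 higher after SNL. The lower ones both belong to the PDE4 subfamily, the targets of rolipram. Pde4d had 3.26 FPKM in SNL and 8.21 FPKM in Control, a 2.51-fold difference, and Pde4c had 2.26 FPKM in SNL and 5.81 FPKM in Control, a 2.57-fold difference. In Control Pde4d stood above the other subfamily members, and in SNL it stood below Pde4b. The other PDE4 genes stayed close to their Control level, with log2 ratios of -0.05 for Pde4a and -0.07 for Pde4b. The higher ones were Pde8a and Pde7a, enzymes with a high affinity for cAMP that rolipram does not inhibit. Pde8a had 9.62 FPKM in SNL and 5.29 FPKM in Control (log2 ratio 0.86), and Pde7a had 4.31 FPKM in SNL and 2.71 FPKM in Control (log2 ratio 0.67). Pde7b and Pde8b, their close relatives, had log2 ratios of 0.21 and -0.09. The summed FPKM of the cAMP-specific PDEs was 35.7 in SNL and 38.4 in Control.

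Among the 7 measured PDEs that act on both cyclic nucleotides, 2 of the 3 calmodulin-stimulated PDE1 genes were lower after SNL and none was higher. Pde1c, the highest catalytic PDE after Pde2a in Control, had 7.95 FPKM in SNL and 15.3 FPKM in Control, a log2 ratio of -0.94. Pde1b had 0.891 FPKM in SNL and 1.68 FPKM in Control, a log2 ratio of -0.91, at a level where the filter of 1 FPKM is close. Pde1a had a log2 ratio of -0.47 and did not pass. Pde2a, with 32.7 FPKM in SNL and 22.4 FPKM in Control, differed by 1.46-fold and lies just inside the fold. It alone held 29.7% of the summed FPKM of the 21 genes for cyclic nucleotide PDEs, the inhibitory subunit Pde6h included, in SNL and 22.3% in Control. The log2 ratios of Pde3a, Pde3b and Pde10a lay between -0.43 and 0.29.

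The PDEs directed at cGMP held the largest difference of all members. Pde6b, the beta catalytic subunit of the PDE of rod photoreceptors, had 11.8 FPKM in SNL and 0.581 FPKM in Control, a 20.4-fold difference. Its Control value is under 1 FPKM, so Pde6b reached the mean only through SNL and the filter largely fixed its direction. With a pseudocount of 1 its log2 ratio was 3.02, beside 4.35 without one. In the other table, normalized apart, both ligated vector groups also held Pde6b, with 7.68 FPKM in the group labelled Neat1 shRNA and 8.43 FPKM in the control AAV group. The alpha subunit Pde6a, with which Pde6b pairs in rods, stayed at 0.0655 FPKM in SNL and 0.0363 FPKM in Control. In rn5 the Pde6b row runs on chromosome 14 from 2327073 to 2370834. The nearest row is Atp5i, a subunit of ATP synthase 2.28 kb away, with 377 FPKM in SNL and 495 FPKM in Control, the opposite direction.

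Pde5a, the cGMP-specific enzyme that sildenafil inhibits, had 5.61 FPKM in SNL and 2.85 FPKM in Control, a 1.97-fold difference. In the other table it stood at 14.4 FPKM in the group labelled Neat1 shRNA and 16.6 FPKM in the control AAV group. The 6 markers of smooth muscle and pericytes, cells known for Pde5a, summed to 139 FPKM in SNL and 117 FPKM in Control, with none past the fold, and their part in the result was not tested. Pde9a, the other cGMP-specific enzyme, had a log2 ratio of -0.24. The cone genes Pde6c and Pde6h stayed under 0.4 FPKM in SNL and Control. Together the cGMP-directed genes summed to 20.9 FPKM in SNL and 7.23 FPKM in Control, and without Pde6b to 9.09 FPKM in SNL and 6.65 FPKM in Control. With Pde6b their share among the cyclic nucleotide PDE genes was 19.0% in SNL and 7.19% in Control. The 2 PDE names that belong to no cyclic nucleotide PDE enzyme in this grouping, Pde6d and the mitochondrial RNA nuclease Pde12, had log2 ratios of -0.40 and -0.18.

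Every PKA subunit had a log2 ratio below 0 after SNL, and for 2 of the 6 the difference passed the fold. The catalytic subunit Prkaca had 43.2 FPKM in SNL and 75.9 FPKM in Control, a log2 ratio of -0.81. Prkar2b, the RII beta subunit that is typical of neurons, had 23.1 FPKM in SNL and 39.5 FPKM in Control, a log2 ratio of -0.77. The other catalytic subunit, Prkacb, had 53.9 FPKM in SNL and 73.9 FPKM in Control, with a log2 ratio of -0.45 that does not pass. In Control both catalytic genes stood at nearly the same level, and in SNL Prkacb stood above Prkaca. Prkar1b had a log2 ratio of -0.39, Prkar2a of -0.14 and Prkar1a of -0.02, none of them past the fold. Summed, the catalytic subunits had 97.1 FPKM in SNL and 150 FPKM in Control, and the regulatory subunits 471 FPKM in SNL and 554 FPKM in Control. The ratio of regulatory to catalytic FPKM was thus 4.85 in SNL and 3.70 in Control. It was 4.46 in the group labelled Neat1 shRNA and 4.72 in the control AAV group. These are ratios of transcripts and not of protein.

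Several cell type markers moved in the same comparison. Of 12 measured sensory neuron markers 9 were lower after SNL and 1 was higher, and their summed FPKM was 9892 in SNL and 18394 in Control. The marker that was higher was Tubb3, a neuronal tubulin, with 3689 FPKM in SNL and 2403 FPKM in Control. All 7 markers of injured neurons were higher, with a sum of 2726 FPKM in SNL and 338 FPKM in Control. All 9 measured macrophage markers were also higher, summing to 223 FPKM in SNL and 42.3 FPKM in Control. So were the 4 of 10 T and NK cell markers that reached a mean of 1 FPKM. None of the T and NK cell list exceeded 0.987 FPKM in Control. Those 4 therefore reached the mean only through SNL, and the filter largely fixed their direction. The whole T and NK cell list summed to 21.9 FPKM in SNL and 3.03 FPKM in Control. Fibroblast markers were higher in 5 of 5 measured cases. Of the satellite glia list 1 of 5 was higher and 2 were lower, of the Schwann cell list 1 of 6 was higher and 1 lower, and of the endothelial list 1 of 5 was higher. These shifts go with the AC, PDE and PKA differences above, and their part in them was not tested.

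Promoter sequences are shown for 3 members that carry these differences and have a single annotated start: Pde6b, the member with the largest difference, Adcy7 from the class of ACs that was higher throughout, and Prkaca, the subunit with the lowest PKA ratio. Each window holds 250 bases before and 50 bases after the start, from RefSeq on the GRCr8 build, which is not the build of the expression tables. Letters are given 5′ to 3′ on the strand of the gene. Capitals mark matches on either strand to TGACG, the core of the cAMP response element that CREB binds, and to TGANTCA. The latter is wider than the AP-1 element, since it allows any middle base, and was added after the values were seen.
Pde6b (chr14:1511386-1511685, minus strand): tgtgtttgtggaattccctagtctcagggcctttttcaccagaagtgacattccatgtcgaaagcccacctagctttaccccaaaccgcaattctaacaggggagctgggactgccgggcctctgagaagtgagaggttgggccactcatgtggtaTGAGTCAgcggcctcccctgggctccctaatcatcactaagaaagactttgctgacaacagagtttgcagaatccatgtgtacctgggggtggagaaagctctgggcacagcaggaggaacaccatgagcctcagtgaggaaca
Adcy7 (chr19:34936495-34936794, minus strand): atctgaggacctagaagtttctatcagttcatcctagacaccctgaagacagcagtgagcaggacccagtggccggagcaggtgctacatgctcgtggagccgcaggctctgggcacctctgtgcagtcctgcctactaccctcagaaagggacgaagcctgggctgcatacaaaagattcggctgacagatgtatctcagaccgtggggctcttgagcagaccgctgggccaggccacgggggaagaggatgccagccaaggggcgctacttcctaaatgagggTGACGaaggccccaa
Prkaca (chr19:41083140-41083439, minus strand): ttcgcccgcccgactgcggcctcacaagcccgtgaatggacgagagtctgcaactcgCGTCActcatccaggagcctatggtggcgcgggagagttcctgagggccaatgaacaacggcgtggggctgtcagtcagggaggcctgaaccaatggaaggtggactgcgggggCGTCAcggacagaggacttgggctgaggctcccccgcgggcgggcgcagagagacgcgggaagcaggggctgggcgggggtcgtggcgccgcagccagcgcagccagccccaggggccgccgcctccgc
The Pde6b window holds 1 match to TGANTCA and none to TGACG, the Adcy7 window 1 match to TGACG, and the Prkaca window 2 matches to TGACG, both of them lying on the opposite strand and so printed as CGTCA. Adcy7 is not typical of its class here, since the single windows of Adcy2 and Adcy4 hold no match to either motif. Of all 33469 windows of this length in the table, 7.33% hold TGANTCA and 21.2% hold TGACG. Windows were found for 26 of the 38 members, 37 windows in all, since some genes have several starts. TGACG was in 9 of the 37 windows, of 7 genes, and TGANTCA in 2 of the 37. The full element TGACGTCA, which contains TGACG on both strands, was in none of them and in 1.83% of all windows. These matches describe letters and were not tested for binding.

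Other genes of the pathway were read from lists by role. Of the ligands and receptors that act through stimulatory G proteins, 3 of 12 measured genes were higher and 2 lower after SNL. The largest differences were in peptides, with Vip at 152 FPKM in SNL and 1.31 FPKM in Control and Calca, which encodes CGRP, at 25.2 FPKM in SNL and 807 FPKM in Control. Among 6 G alpha subunits that act on AC none was higher and 2 were lower, Gnal, a stimulatory subunit best known from olfactory neurons, with 21.8 FPKM in SNL and 76.5 FPKM in Control, and the inhibitory Gnai1 with 23.1 FPKM in SNL and 37.1 FPKM in Control. Gnas, the general stimulatory subunit, had 1145 FPKM in SNL and 1171 FPKM in Control. It is the most abundant gene of that list and lies close to its Control level.

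Downstream of cAMP, 1 of 3 PKA inhibitors was lower, Pkig, with 28.0 FPKM in SNL and 56.0 FPKM in Control. Of 9 measured A-kinase anchoring proteins, which tether PKA in the cell, only Akap7 passed the fold, with 11.2 FPKM in SNL and 5.28 FPKM in Control. In the CREB family 2 of 5 measured genes were higher, the cAMP-inducible factor Crem with 12.2 FPKM in SNL and 5.05 FPKM in Control, and Atf1 with 11.7 FPKM in SNL and 7.10 FPKM in Control. Rapgef3, the cAMP-activated exchange factor Epac1, had 5.40 FPKM in SNL and 5.55 FPKM in Control. On the side of cGMP, 3 of 7 measured guanylyl cyclase and PKG genes were lower and 1 was higher. The largest of these differences was in the cGMP-dependent kinase Prkg2, with 0.104 FPKM in SNL and 2.15 FPKM in Control, followed by the natriuretic peptide receptor Npr1, which was higher, with 1.85 FPKM in SNL and 0.784 FPKM in Control. Prkg2, Npr1 and Gucy1a2, which was also lower, reached the mean of 1 FPKM only through the group where they were higher. The filter thus largely fixed their direction.

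In the comparison of the group labelled Neat1 shRNA with the control AAV group, 1 of 34 measured members passed the fold, 2.94%, and it was lower. Of all 10967 measured symbols 4.78% were past the fold, with 1.27% higher and 3.51% lower. The median log2 ratio of the members was -0.04, beside -0.00365 over all measured symbols. The member past the fold was Pde6h, the inhibitory gamma subunit of the cone PDE, with 0.439 FPKM in the group labelled Neat1 shRNA and 1.60 FPKM in the control AAV group. Its mean of both groups lies just above the filter and was reached only through control AAV, so the filter largely fixed its direction. In this table its row starts farther from the gene than in the other, on chromosome 4 of rn5 at 235211112 in place of 235214813. The rows so cover different lengths.

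The next largest differences were in cAMP-specific PDEs that had also passed the fold after SNL. Pde7a had 3.5 FPKM in the group labelled Neat1 shRNA and 5.04 FPKM in the control AAV group, 1.44-fold lower and short of the fold. Pde4c had 3.06 FPKM in the group labelled Neat1 shRNA and 2.15 FPKM in the control AAV group, 1.42-fold higher and also short of it. Both ran against their direction after SNL, where Pde7a was higher and Pde4c lower. The paper, whose legend sets no fold for this comparison, lists Pde7a and Pde4c among the genes changed by Neat1 knockdown. All 10 T and NK cell markers were lower in the same comparison, with a sum of 25.6 FPKM in the group labelled Neat1 shRNA and 90.0 FPKM in the control AAV group, and their part in the Pde7a value was not tested. Pde6b was within 1.10-fold, Pde5a within 1.15-fold and Pde4d within 1.08-fold.

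No AC and no PKA subunit passed the fold in this comparison. Among the ACs that reached 1 FPKM, the widest values were those of Adcy7, with 9.47 FPKM in the group labelled Neat1 shRNA and 11.8 FPKM in the control AAV group (log2 ratio -0.32), and of Adcy8 (-0.31) and Adcy1 (0.26). Among the PKA subunits the log2 ratios ran from -0.20 for Prkar2b to 0.23 for Prkacb. Prkaca, lower after SNL, had 40.0 FPKM in the group labelled Neat1 shRNA and 39.1 FPKM in the control AAV group. In the pathway lists only the prostaglandin receptor Ptger2 passed the fold, with 1.07 FPKM in the group labelled Neat1 shRNA and 2.38 FPKM in the control AAV group. Markers of smooth muscle and pericytes were higher in 4 of 6 cases and of Schwann cells in 1 of 7, and 1 of 9 macrophage markers and both measured B and plasma cell markers were lower, while no neuronal marker passed the fold. No B and plasma cell marker exceeded 0.608 FPKM in the group labelled Neat1 shRNA. The measured ones thus reached the mean only through control AAV, and the filter largely fixed their direction.

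The comparisons share no library, and 33 members were measured in both. Of the 8 members that were higher after SNL, 6 had a log2 ratio below 0 in the group labelled Neat1 shRNA, beside 67.2% of the 1931 symbols that were higher after SNL and measured in both tables. Of the 6 lower members measured in both, 3 had a log2 ratio above 0, beside 68.2% of 1498 symbols. The shares are those of few genes. Apart from Pde4c and Pde7a, the shRNA log2 ratios of these 14 members lay between -0.32 and 0.07.

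**Figure D4:**
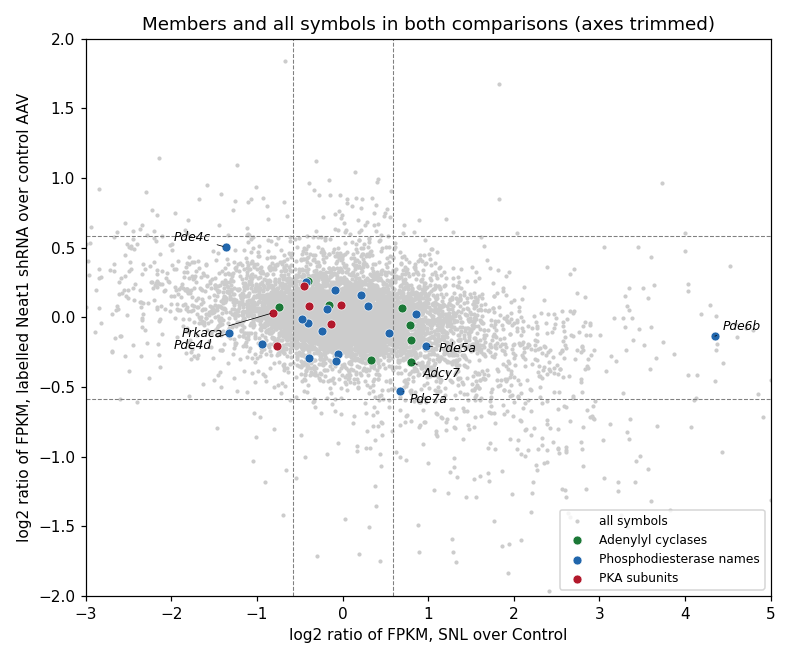
Log2 ratio of FPKM in the group labelled Neat1 shRNA over control AAV against that of SNL over Control, for the 33 members measured in both comparisons (coloured by family) and 10329 symbols (grey, another 97 lie outside the axes), with dashed lines at 1.5-fold. The members spread along the SNL axis, between -1.36 for Pde4c and 4.35 for Pde6b, and none of those shown passes the fold on the other axis.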

How the data were processed

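Polyadenylated RNA of the rat L5 DRG was sequenced in 12 libraries. According to the methods, stranded libraries were read as 75 bp pairs on a HiSeq 2500 and aligned to rn5 with RefSeq genes by RNA-Seq Alignment v1.0, and Cufflinks Assembly & DE v2.0 gave FPKM. Cufflinks and rn5 also stand in the processing notes of the submitters. As deposited by the authors, each table holds 1 FPKM value per group and row, 28578 rows in the injury table and 28745 in the shRNA table. The other 5 columns, with the fold changes, test statistics, p-values, q-values and significance marks of the authors' comparison, were not used. Depth per library is not given in the tables, so values near 0 carry an error that cannot be stated.

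Ratios and log2 ratios of group FPKM were computed without a pseudocount, for symbols with a mean of at least 1 FPKM over both groups, and called past 1.5-fold, the fold in the study's legend for the injury comparison. For the shRNA comparison the study's legend sets no fold, so genes short of 1.5-fold here can still be among those the study counts as changed. Unnamed rows and rows that join several symbols were left out. Members and lists were chosen with earlier results of these data known. The text names members past the fold, the 4 of each family with the highest mean over the 4 groups, and in each of 7 pathway lists up to 2 past the fold with the largest ratio. Members and list genes named beyond this rule complete their class and were chosen after their values were seen. Alternatives were other folds, filters and pseudocounts, centring on the median and summed rows. The code for calling was run on simulated group values with planted differences larger than the fold and little noise. That run held no spread between rats, so it checks the code and not the calls. Python 3.11.15, with numpy 2.4.6 and pandas 2.3.3, was used for all values, and matplotlib 3.10.9 for the plots. Promoter sequences were matched by symbol. The result of 1 marker list is not reported here.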

Additional observations from a re-analysis of the deposited data

How the results depend on the processing

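The calls depend most on the fold. With a fold of 2, 1 member was higher after SNL (Pde6b) and 2 were lower (Pde4c and Pde4d), beside 9.7% and 8.15% of all symbols. With a threshold of 0.32 on the log2 scale 10 were higher and 14 lower, beside 29.3% and 27.7%. At 1.5-fold there were 8 and 7. With a mean of at least 5 FPKM, 19 members were measured. Of these 5 were higher and 5 lower, beside 14.3% and 15.5% of all symbols. In the shRNA comparison, where 0 members were higher and 1 lower, the threshold of 0.32 gave 1 higher and 2 lower. All symbols had 5.02% higher and 7.88% lower at that threshold. Without the filter 38 members were read, with 1 higher and 2 lower, beside 5.21% and 6.98% of all symbols. A mean of at least 5 FPKM left 21 members, with 0 higher and 0 lower, beside 0.71% and 1.99% of all symbols. A pseudocount of 1 took Adcy4, Pde1b and Pde7a under the fold after SNL. The other 165 values of named members computed under pseudocounts, centring and summed rows kept their side of the fold, and none changed its sign. The medians moved by less than 0.1. No paired analysis was possible because the tables hold 1 value per group and no columns by replicate, which also kept leave-one-out values from being computed. Depth is unknown, so differences of members near or under 1 FPKM (Pde1b, Pde6h, Adcy10) cannot be read as firmly as those of abundant ones. The same holds for Pde6b, which was under 1 FPKM in Control.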

Other observations

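Some rows hold further values for these genes. A row that joins Pde11a, a PDE of both cyclic nucleotides, with the neighbouring gene Cyct had 0.104 FPKM in SNL and 2.49 FPKM in Control, and 0.0959 FPKM in the group labelled Neat1 shRNA and 0.0772 FPKM in the control AAV group. The reads of either gene cannot be told apart in it. A further row of Adcy3 had 1.32 FPKM in SNL and 0.704 FPKM in Control, the opposite direction to the main row. A further row of Adcy5 likewise had 0.903 FPKM in SNL and 0.690 FPKM in Control. A further row of Pde1b had 0.197 FPKM in SNL and 0.735 FPKM in Control, the same direction as its main row. These rows were chosen after their values were seen.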
